A study of Mus musculus with 2 samples.

Results

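Potassium channel genes with a symbol starting with Kcn were examined in a list of genomic sites bound by cJUN, a DNA-binding subunit of the transcription factor AP-1, in the embryonic mouse intestine. The members were all genes of this name among the nearest genes that the authors listed for each peak, together with all of their peaks. There were 26 such genes among 2963 listed gene names, and they stood at 43 of 2741 peaks. The chromatin immunoprecipitation and sequencing (ChIP-seq) compared 1 cJUN immunoprecipitate, made with a rabbit polyclonal antibody, with 1 input library of sonicated DNA that saw no antibody. Both came from wild-type C57BL/6 whole intestines of 1 litter of 8 embryos at E14.5, cultured for 24 h on transwells, and were sheared to about 500 bp. Pooled embryos and 1 library per group leave no replicate error, so every value below is a description of this peak list without a test. The whole organ mixes epithelium, mesenchyme, muscle and enteric neurons, and a peak list holds no RNA values against which the tissue could be checked.

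Potassium channels let potassium leave the cell and so hold or restore the resting membrane potential. Voltage-gated channels open when the membrane depolarises, calcium-activated channels open when calcium rises inside the cell, inward rectifiers pass current best near the resting potential, and two-pore-domain channels leak at rest. Auxiliary subunits do not form the pore but change the gating or the delivery of the channels that do. In the gut wall these channels set the excitability of smooth muscle and enteric neurons, and in the epithelium they provide the driving force for transport.

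Kcn genes were listed at cJUN peaks more often than protein-coding genes in general. Of 94 protein-coding Kcn genes in the gene table, 26 had a listed peak (27.7%, with an exact 95% interval of 18.9 to 37.8%), against 12.5% of all 21900 protein-coding genes. The voltage-gated pore genes (14 of 40, 35.0%) and the calcium- or sodium-activated genes (4 of 8, 50%) had the highest shares. Groups follow symbol families, so Kcnu1 counts in the latter group by family and not by what opens its channel. Inward rectifiers (3 of 15, 20.0%), auxiliary subunits (3 of 17, 17.6%) and two-pore-domain channels (2 of 14, 14.3%) had shares nearer to the background, and the intervals of all 5 groups overlap one another. Counted as the nearest gene of a peak, 18 Kcn genes remained (19.1%), against 7.61% of all protein-coding genes. Within 100 kb of a peak, 9 Kcn genes remained (9.57%), against 6.83%. Among close peaks the share was thus near the background, and with 9 genes and no interval computed an excess there cannot be told. Most Kcn listings were distant.

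**Figure D1:**
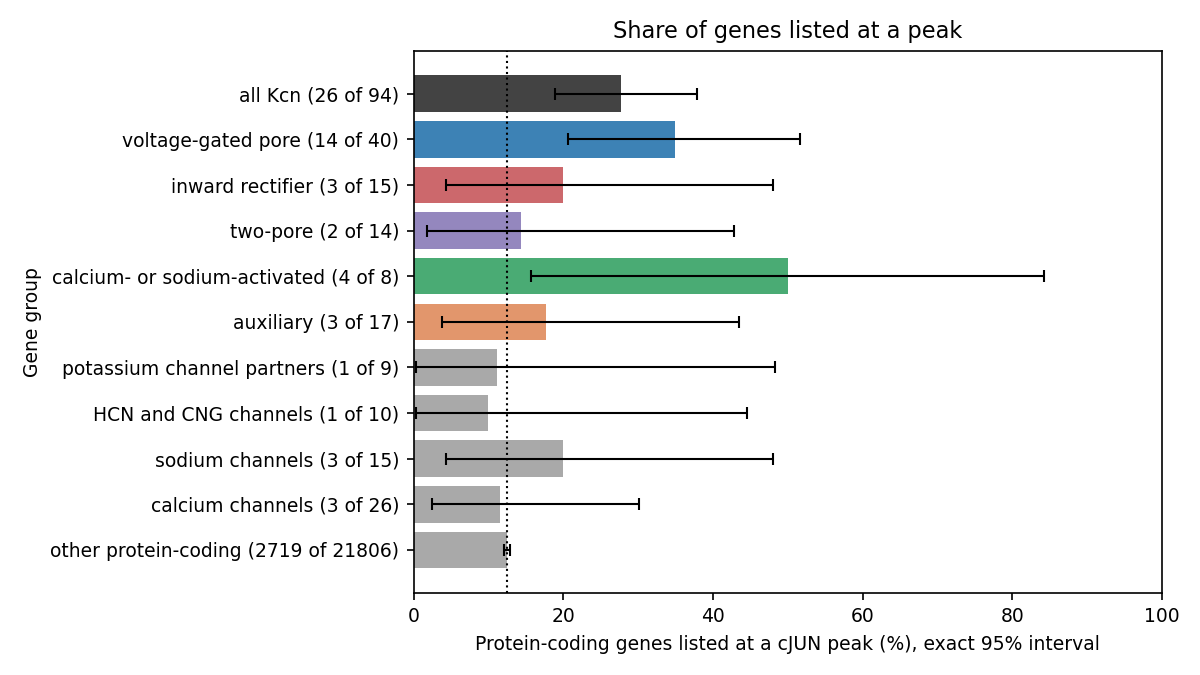
Bars give the share of protein-coding genes listed at a cJUN peak in percent, from 0 to 100, for all Kcn genes, the 5 Kcn groups, 4 other channel lists and the other protein-coding genes, with exact 95% intervals that cover counting error only. The dotted line marks the other protein-coding genes at 12.5%, and the bar for all Kcn genes ends at 27.7%.

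Kcn genes lay farther from their peaks than other listed genes. The median distance over 44 Kcn listings was 236 kb, with quartiles of 110 and 546 kb, against 143 kb over 4650 listings of other genes, with quartiles of 48.4 and 349 kb. Only 10 Kcn listings (22.7%) were within 100 kb, against 41.9% of the others, and 13 (29.5%) were beyond 500 kb, against 16.2%. No Kcn gene had a peak closer than 17.7 kb, so none of these peaks lay at the start site that the list uses. The neighbourhoods of Kcn peaks were also wider: the 2 genes listed at a peak had start sites a median of 603 kb apart at 32 Kcn peaks, against 297 kb at 1600 other peaks. Each peak was counted, so in both sets a gene pair listed at several peaks enters the median several times. Among the Kcn peaks, Kcnh8 and Satb1, 893 kb apart, are a pair listed at several peaks. The 32 include the Kcnip4 peak of uncertain position described below. The part of gene spacing in the share of Kcn genes listed was not tested.

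**Figure D2:**
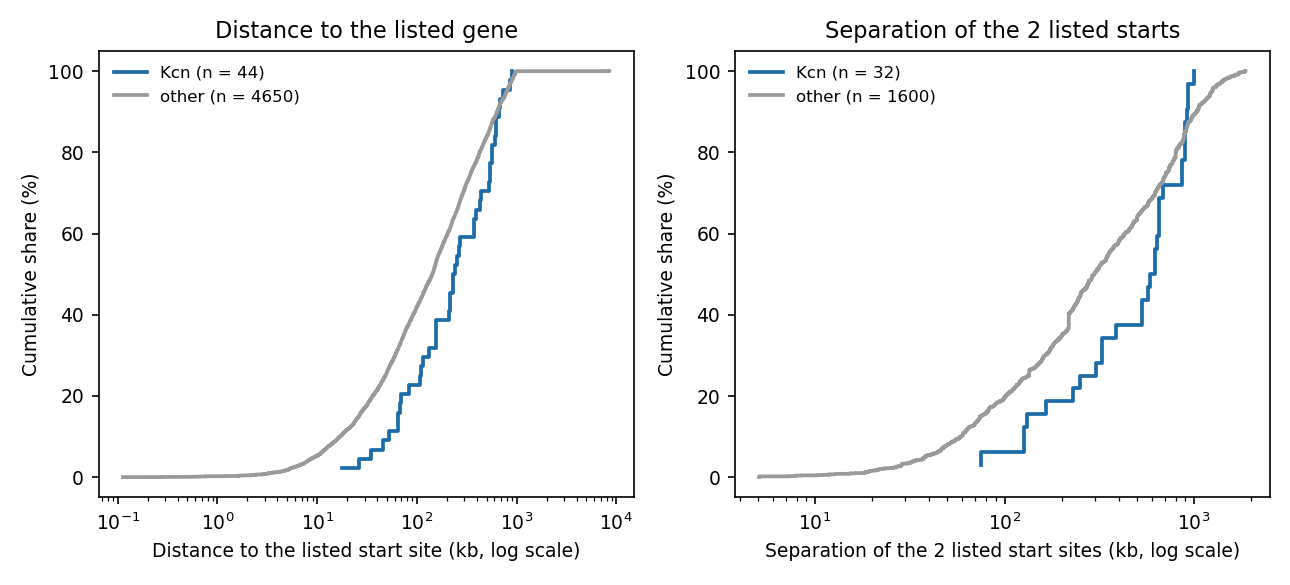
Cumulative shares in percent are plotted against distance in kb on log axes. Left, the distance from a peak to a listed start site for 44 Kcn listings and 4650 other listings; right, the separation of the 2 listed start sites for 32 Kcn peaks and 1600 other peaks. The Kcn lines run to the right of the others over most of their range, with medians of 236 kb against 143 kb on the left and 603 kb against 297 kb on the right.

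In strength the Kcn peaks had medians close to those of the rest of the list. Their median fold over background, a ratio taken from the authors' table, was 17.9, against 16.8 for the other 2698 peaks. Their median score, 10 times −log10 of the p that their caller gave, was 59.5, against 61.3. Lengths had a median of 149 bp in both sets. Scores of 100 and above were found for 3 Kcn peaks (6.98%), against 4.60% of the others, and a fold under 10 was found at 4 (9.30%), against 12.1%. None of the 43 Kcn peaks lay in a dense cluster (at least 5 peaks, neighbours no more than 100 kb apart), against 215 of the other 2698 peaks. Of the Kcn listings, 19 (43.2%) were upstream of the start site and 25 downstream, against 48.1% upstream among listings of other genes. The single Kcnb2 peak counts once on each side.

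**Figure D3:**
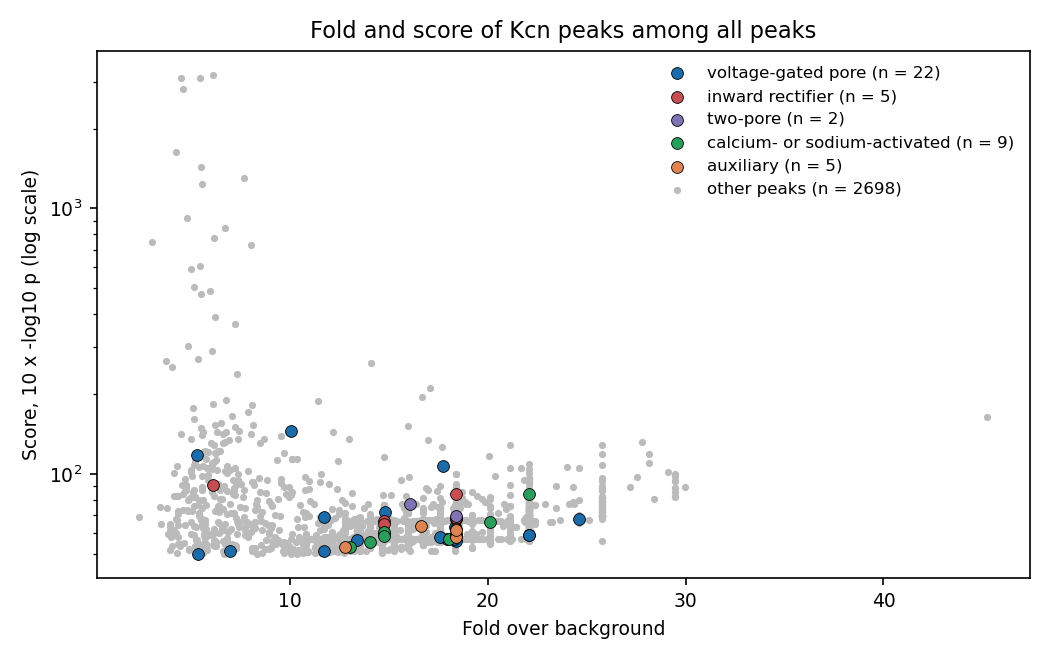
Each point is 1 peak, with its fold over background on the x axis and its score, 10 times the −log10 p, on a log y axis. The 43 Kcn peaks, coloured by group, lie mostly in the dense band of low scores, and 3 of them, at Kcnh1, Kcnh5 and Kcnh8, have a score of at least 100.

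The Kcnh genes, which encode the ether-a-go-go type of voltage-gated channel, held the 3 Kcn peaks with the highest scores. The folds of these 3 peaks, 10.06, 5.31 and 17.73, were all below the Kcn median of 17.9. Of 8 Kcnh genes, 4 were listed, at 9 peaks, against the background of 12.5% of all protein-coding genes. These 9 peaks also included the lowest score (50.08) and the lowest fold (5.31) of all Kcn peaks. The peak at Kcnh1, at chromosome 1 from 194277870 to 194278010 (mm9, as are all peak positions here), had the highest score of all Kcn peaks, 145.52, with a fold of 10.06. It lay 263 kb downstream of the Kcnh1 start and ranked 45th of 2741 by score. The other gene listed there, at 319 kb, was Hhat, which encodes the acyltransferase that attaches a lipid to Hedgehog ligands.

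Kcnh5 had 3 peaks. Of these, 2 lay only 107 bp apart on chromosome 12, from 75904868 to 75905022 with fold 6.97 and score 51.4, and from 75905129 to 75905494 with fold 5.31 and score 117.39. They were 373 kb downstream of the start, and the second was the longest Kcn peak, at 365 bp. The third, from 76343548 to 76343701, lay 65.3 kb upstream of Kcnh5 and 65.7 kb from Rhoj, with fold 14.8 and score 71.65. The pair downstream therefore had the low folds, and the single upstream peak had a fold near the middle of the list.

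Kcnh8 had 4 peaks, the most of any Kcn gene. They lay 855, 726 and 252 kb upstream and 427 kb downstream on chromosome 17, at starts of 52009819, 52138526, 52613440 and 53291811. Their scores in that order were 58.82, 107.5, 67.86 and 50.08, and their folds 18.42, 17.73, 24.62 and 5.35. The third had the highest fold of all Kcn peaks, and the last had almost the lowest score of the whole list (rank 2740 of 2741). The 3 upstream peaks also listed Satb1, a chromatin organiser gene, which was the nearer gene for 2 of them, at 37.9 and 167 kb. The downstream peak was nearer to Efhb, at 311 kb, so Kcnh8 was the nearest listed gene at 1 of its 4 peaks. Kcnh7, of the erg type, had 1 peak 661 kb upstream, at chromosome 2 from 63682890 to 63683036 with fold 22.11 and score 59.03, and Fign was nearer at 253 kb.

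Among the other voltage-gated families, 5 of 14 Kcnb, Kcnc, Kcnd and Kcnq genes were listed, against 12.5% of all protein-coding genes. No interval was computed for this small set. Its 7 peaks had scores of 51.19 to 68.62. Kcnd2 and Kcnd3 encode the pores of the fast inactivating A-type current. Kcnd2 had a peak 65.2 kb upstream on chromosome 6 from 21100236 to 21100406, with fold 17.94 and score 57.03. A second Kcnd2 peak 628 kb downstream, from 21793532 to 21793676, was only 8.91 kb from Tspan12 and had fold 13.4 and score 56.45. Kcnd3 had 1 peak 111 kb upstream, with fold 14.74 and score 59.47.

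Kcnq5, a gene of the M-current family, which damps repeated firing, had 2 peaks on chromosome 1, both upstream and both with a fold of 11.73. The one from 21987013 to 21987162 was 35.1 kb from the Kcnq5 start and had a score of 51.19. The one from 22562639 to 22562814 was 611 kb away and scored 68.62, but it was nearer to Rims1, a presynaptic active-zone gene, at 40.7 kb. Kcnc2, a gene of fast delayed rectifiers, had 1 peak 157 kb downstream with score 55.93 and fold 18.42. Kcnb2, a delayed rectifier gene, was listed 2 times for a single peak, at chromosome 1 from 15487619 to 15487765 with fold 18.35 and score 63.2. Its distances were 215 kb upstream and 210 kb downstream, so the list used 2 positions for this gene that are 425 kb apart. A repeated gene name occurred at 9 peaks of the whole list.

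In the Kcna family 1 of 8 genes, Kcna4, was listed, the same 12.5% as for all protein-coding genes. Its peak lay 156 kb upstream of its start at chromosome 2 from 106974695 to 106974851. It had fold 18.29 and score 56.7 and was nearer to Fshb, the follicle-stimulating hormone beta gene, at 75.0 kb. The silent modifier subunits, which form no channel alone but alter Kcnb channels, had 4 of 10 genes listed, against the same 12.5%. No interval was computed for this small set. The 4 genes were Kcnf1, Kcng2, Kcns3 and Kcnv1, at 5 peaks between 52.6 and 231 kb from the start sites. Their folds ran from 17.59 to 22.11 and their scores from 56.7 to 67.72. The Kcns3 peak, at 231 kb, was nearer to Pgk1-rs7, at 19.1 kb. Kcnf1 had the highest score of them, at chromosome 12 from 17131031 to 17131186, 52.6 kb downstream. Kcnv1 had 2 peaks, 26.0 kb apart on chromosome 15, at starts of 44813709 and 44839824, with scores of 58 and 56.7 and folds of 17.59 and 18.29. None of these peaks stood out by score.

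**Figure D4:**
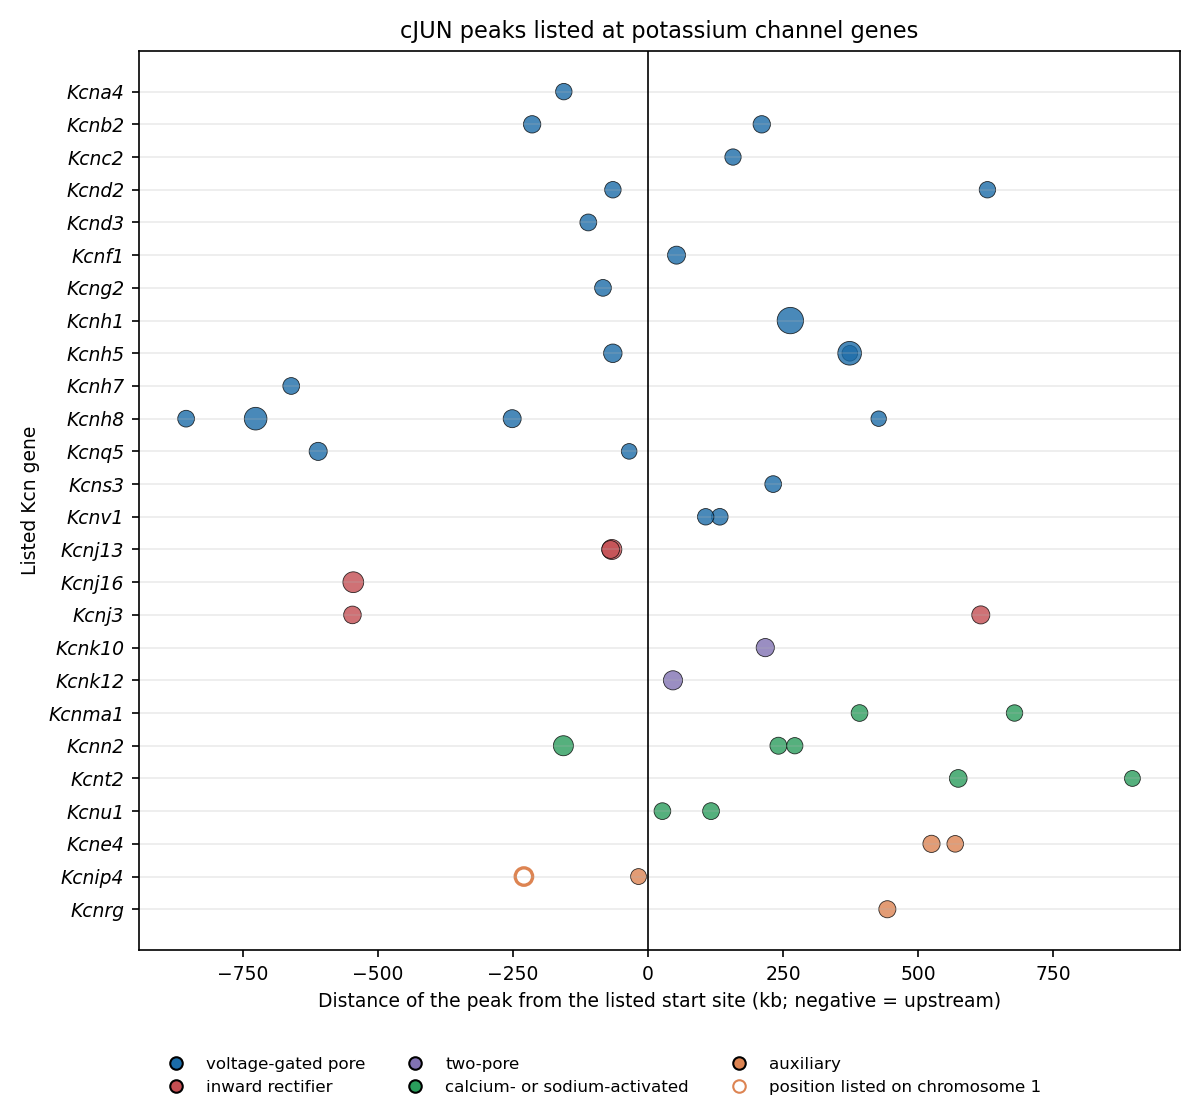
Each circle is a cJUN peak listed at a Kcn gene, placed by its distance from the listed start site in kb (negative is upstream), with an area proportional to its score and a colour for the Kcn group. The open circle is the Kcnip4 peak whose position is listed on chromosome 1. All circles lie at least 17.7 kb from the start, and the calcium- or sodium-activated genes have 8 of 9 circles downstream. Among listings of other genes, 48.1% were upstream.

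The calcium- or sodium-activated genes had 9 peaks at 4 genes, and each of the 4 genes had at least 2. For 8 of the 9 peaks the Kcn gene was the nearest listed gene, and 8 lay downstream of its start. At the peaks of Kcnma1 and Kcnt2 no second gene was listed, so the Kcn gene was the nearest there by default. Among listings of other genes, 56.1% were the nearest and 48.1% were upstream. Whether the 9 peaks fall inside the transcribed genes was not analysed here, since no annotation of the files' build was used. Kcnn2 encodes a small-conductance (SK) channel opened by calcium. Its peak at chromosome 18 from 45271768 to 45271946, 157 kb upstream, had the highest score of the group, 84.06, with a fold of 22.11. The 2 others at Kcnn2, 241 and 272 kb downstream at starts of 45669828 and 45700095, had lower scores of 60.6 and 55.67 and folds of 14.74 and 14.07.

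Kcnma1, which encodes the large-conductance (BK) channel that opposes contraction in smooth muscle, had 2 peaks on chromosome 14. They lay 391 kb downstream, at a start of 24231095 with a score of 58.6, and 678 kb downstream, at 23944203 with a score of 56.7, and no other gene was listed at either. The sodium-activated channel gene Kcnt2 likewise was the sole listed gene at both of its peaks on chromosome 1. These were 574 kb downstream, at 142716780 with a score of 65.65, and 897 kb downstream, at 143039234 with a score of 53, the farthest Kcn listing. Kcnu1, which encodes a relative of the BK channel found in sperm, is in this group by family and not by what opens its channel. It had 2 peaks 26.5 and 116 kb downstream on chromosome 8, at starts of 26986495 and 27076508, with scores of 58.6 and 59.47. The second was nearer to Hgsnat, a lysosomal acetyltransferase gene, at 10.6 kb.

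Inward rectifiers had 5 peaks at 3 genes, and 4 of the 5 were nearer to another gene. Among listings of other genes, 56.1% were the nearest. The highest score of the group, 90.59, belonged to Kcnj16 at chromosome 11 from 110283562 to 110283649. This peak was the shortest of all Kcn peaks, at 87 bp, had a fold of 6.12 and lay 546 kb upstream of Kcnj16 but 23.2 kb from Map2k6, a kinase gene of the p38 stress pathway. Kcnj13, whose channel (Kir7.1) serves ion transport in epithelia, had 2 peaks separated by 2.11 kb on chromosome 1, at starts of 89358349 and 89360638. They were 67.1 and 69.4 kb upstream, with scores of 84.06 and 66.58 and folds of 18.42 and 14.74, and lay within 8.40 kb of 3110079O15Rik. Kcnj3, a gene of G protein-gated channels, had 2 peaks on chromosome 2 on either side of its start. They lay 547 kb upstream, at 54741023 with a score of 65.04, and 616 kb downstream, at 55904105 with a score of 68.42.

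Both two-pore-domain genes with a peak had 1 each, downstream of the start. Kcnk12 had the higher score, 76.91, with a fold of 16.09, at chromosome 17 from 88151239 to 88151422. It lay 46.0 kb from the start of Kcnk12, the nearest gene listed there. Kcnk10, a gene of mechanically and lipid-gated leak channels, had a peak 217 kb away with score 69.39 and fold 18.42, and Gpr65 was nearer at 88.7 kb.

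Auxiliary subunits had 5 peaks at 3 genes. The 3 Kcnab and 4 Kcnmb genes, partners of voltage-gated and BK pores, had no listed peak, and at the background share of 12.5% so few genes could be without one. Kcne4, a single-span subunit that inhibits several voltage-gated channels, had 2 peaks 525 and 568 kb downstream on chromosome 1, at starts of 79337999 and 79381901. Both had a fold of 18.42, with scores of 62.02 and 57.75, and both were nearer to Scg2, a secretogranin gene, at 98.6 and 54.7 kb. Kcnrg, a gene of a soluble regulator of voltage-gated channels, had 1 peak 443 kb downstream on chromosome 14, with score 61.3 and fold 18.42, and Dleu7 was nearer at 243 kb.

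Kcnip4 encodes a calcium-binding protein that attaches to the Kcnd pores. It had the nearest of all Kcn listings, a peak at chromosome 5 from 49933794 to 49933948, 17.7 kb upstream, with fold 12.79 and score 52.87. The next gene there was Gpr125 at 516 kb. A second Kcnip4 listing, with the highest score among the auxiliary subunits (63.45, fold 16.62), was placed at chromosome 1 from 149928854 to 149929061, although the gene table has Kcnip4 and Gpr125 on chromosome 5. The deposited length of this peak is 210 bp, whereas its end minus its start gives 207 bp, and it was the only peak of the list with such a mismatch. Another peak of the list has exactly the same start and end with a length of 207 bp, a fold of 24.62, a score of 65.42 and the single listed gene Gm9931. This was the only repeated position in the list.

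The distances listed for the second Kcnip4 peak were compared with those of the first. Its distances to Kcnip4 (230 kb) and Gpr125 (304 kb) add up to 534.092 kb, and those of the chromosome 5 peak add up to the same 534.092 kb. Counted from the start sites that the chromosome 5 peak gives, 49916143 for Kcnip4 and 50450235 for Gpr125, both distances point to 50146031 on chromosome 5, where no peak is listed within 5 kb. A further peak of Gpr125 gives the same Gpr125 start. The listed distances and the listed position of this peak are therefore incompatible, and its distance was kept as listed in the counts above. Listings on a chromosome other than that in the gene table were rare, with 9 of 4535 matched listings at 8 peaks.

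Promoter windows of the Kcn genes were searched for the letters TGANTCA, which read the same on both strands and include the AP-1 consensus, TGACTCA or TGAGTCA. The windows, from RefSeq on GRCm38.p6, run from 250 bases before to 50 after a start. Some genes have windows at several starts, and peaks were not placed on this build, so the windows were not compared with peak positions. Windows were found for 21 of the 26 listed Kcn genes and for 69 of all 94. TGANTCA was in 1 of 31 windows of listed Kcn genes (3.23%) and in 4 of 94 windows of all Kcn genes (4.26%), against 6.99% of 21263 windows of all protein-coding genes. The consensus letters were in 0 of the 31 windows of listed genes and in 2 of the 94, against 4.66% of all windows. The 4 matches are printed 5′ to 3′ on the gene's strand with the matching letters in capitals, since they are the only places where a Kcn promoter window holds them:
Kcnip4: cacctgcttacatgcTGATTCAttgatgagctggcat
Kcnip3: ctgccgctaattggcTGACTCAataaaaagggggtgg
Kcnk2: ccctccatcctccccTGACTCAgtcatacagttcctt
Kcne3: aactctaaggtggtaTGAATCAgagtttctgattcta
On GRCm38.p6 these are chr5:49285720-49285756 (minus strand), chr2:127522195-127522231 (minus strand), chr1:189344297-189344333 (minus strand) and chr7:100176618-100176654 (plus strand). Only Kcnip4 is listed at a peak, and its match, 79 bases before the start, differs from the consensus in the middle letter. This window is 1 of 2 for Kcnip4, and which start the authors' distances use was not determined. Peak sequences are not shown, because no genome of the files' build was used here.

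Other genes of potassium channel function and other cation channels had shares of 10 to 20%, with wide intervals. Of 9 partners of potassium channels without a Kcn symbol, only Lrrc55, a BK auxiliary gene, was listed (11.1%), 87.5 kb from a peak with a score of 51.25. Dpp6 and Dpp10, which like Kcnip4 attach to the Kcnd pores, and Abcc8 and Abcc9, the partners of inward rectifiers, had no listed peak. Among 10 HCN and CNG channel genes, 1 was listed, Cnga2 (10%), at 153 kb with a score of 59.03. Sodium channels had 3 of 15 (20.0%), namely Nalcn, Scn11a and Scn2a, with scores of 56.7 to 72.97. Calcium channels had 3 of 26 (11.5%), namely Cacna1e, Cacna2d1 and Cacnb4, with scores of 52.94 to 74.13. The exact intervals of these 4 lists, the widest from 0.281 to 48.2%, all include both the 27.7% of the Kcn genes and the background of 12.5%.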

How the data were processed

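One deposited table was used, with 1 line per cJUN peak. The submitters' processing notes name Bowtie 1.1.0, MACS 1.4 and mm9. How reads were filtered, what was done with duplicates or reads that align in several places, where the peak threshold lay and how genes were paired with peaks are not given in the sources used here. Each of these can change which weak peaks are listed. The fold is a ratio over background and the score is 10 times −log10 p, both the authors' values per the file headers, used only to describe peaks within this list. Library depth is unknown, since no read totals were used. Positions are printed as deposited, and the file does not say whether a start is 0-based or 1-based.

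A symbol starting with Kcn defined the members. Groups followed the symbol families, and the members, groups and lists were chosen with earlier results of these data known. Every listed Kcn gene was named, with positions given for the strongest, nearest, farthest and repeated peaks. All 26 names matched a symbol of a RefSeq table of GRCm38.p6, from which names, biotypes and chromosomes were taken. Promoter windows came from a RefSeq promoter table of the same build, and no position was carried over between builds. A gene's strand was taken from its listed distances where 2 or more peaks fixed it, and otherwise from that promoter table. Distances carry a sign: a sign read along the gene's strand placed 927 of 929 genes with 2 or more peaks at 1 start to within 1 bp, and the strand so found equalled that of RefSeq for 665 of 670 genes, so negative was read as upstream. Shares have exact Clopper-Pearson 95% intervals, which cover counting error only. No test was run. The reader of the list was tested on simulated data. Python 3.11.15, pandas 2.3.3 and SciPy 1.17.1 were used. Alternatives were score, fold and distance limits, merged neighbouring peaks, the nearest gene only, 1 value per gene, and leaving out listings on another chromosome.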

Additional observations from a re-analysis of the deposited data

How the results depend on the processing

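With peaks at or above the median score of the list, 16 Kcn genes at 20 peaks were left, with a median score of 68.5, 6 voltage-gated and 2 calcium- or sodium-activated genes. With the nearest listed gene only, 26 peaks were left, and inward rectifiers, two-pore-domain channels and auxiliary subunits had 1 gene each. Within 100 kb, 9 genes at 10 peaks were left, with a median distance of 58.9 kb, 5 voltage-gated genes and 1 gene in each of the other 4 groups. Within 500 kb, inward rectifiers had 1 gene. These changes follow from fewer peaks or listings being counted. The other values stayed within 1.5 times the reported count, or within the exact binomial interval of the median, under these alternatives. That held for every value with peaks within 1 kb merged, and for folds of 10 and above. It also held with 1 value per gene and without listings on another chromosome. Leaving out clustered peaks, an alternative chosen after seeing the data, could not change these values, since no Kcn peak lay in a dense cluster. The share of Kcn genes listed was 17.0% with the score limit and 22.3% within 500 kb, against 7.26% and 11.5% of the other protein-coding genes. No paired analysis was possible because there is 1 library per group. The groups have 8 to 40 genes, so the order of their shares is uncertain.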

Other observations

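Kcn genes with a peak were listed at more than 1 peak in 13 of 26 cases (50%), against 30.9% of 2719 other listed protein-coding genes. The 13 include Kcnip4, which has 2 peaks only if the one of uncertain position is counted. For 3 Kcn genes (11.5%) 3 or more peaks were found, against 10.7%. No peak listed 2 different Kcn genes. At 36 Kcn peaks another gene was listed as well, and the Kcn gene was the nearer at 19 of them. Chromosome 1 held 11 of the 43 Kcn peaks, at 7 genes, including the Kcnip4 peak of uncertain position, and 201 of the 2741 peaks of the whole list.

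Peaks of different genes often had identical length and score. Of the 43 Kcn peaks, 31 (72.1%) shared both with another peak of the list, against 64.4% of the other peaks. The peaks at Kcnma1, Kcns3 and Kcnu1 that are 148 bp long all scored 58.6, as did 33 of the 65 peaks of that length, at 3 different folds between 14.74 and 22.11. The peaks of 178 bp at Kcnn2 and Kcnj13 both scored 84.06, with folds of 22.11 and 18.42. The fold of 18.42 alone was found at 12 Kcn peaks (27.9%), against 23.8% of the other peaks. Score ranks among the weaker Kcn peaks therefore contain many ties. Folds of 14.74 and 22.11, which are 0.8 and 1.2 times 18.42, were found at 5 and 3 Kcn peaks. In the whole list 438 and 279 peaks had these folds. The numbers of reads behind such repeated folds are not known, and what sets the steps between them was not tested.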
